A study of Mus musculus with 5 samples.

Results

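The Creb3 family comprises the transcription factor genes Creb3, Creb3l1, Creb3l2, Creb3l3 and Creb3l4, and is described here together with Mia3, which encodes a cargo receptor of the secretory pathway. The members were taken as all probes that the platform annotation assigns to these 6 gene symbols, which gave 11 of the 24613 probes in the table. The genes were chosen with their knockdown against control values already known, so those values are given as a description. Where a member probe is said to pass or miss a threshold, this is part of the description and no test of it. The RNA came from the F9 line of mouse embryonal carcinoma, whose cells turn towards extra-embryonic endoderm under retinoic acid, and the label of every sample names Retinoic Acid as its treatment. Control cells were measured on 2 arrays and Sox7 and Sox17 knocked-down cells on 3, these genes encoding a pair of related endoderm transcription factors. The sources used here do not state the dose or duration of retinoic acid, the means of the knockdown, what the control cells received, or whether the numbered samples were separate cultures. P-values thus speak only of the spread between these 5 samples, and that spread may be technical.

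Creb3 family proteins are basic leucine zipper transcription factors that are made as membrane proteins of the endoplasmic reticulum (ER). After transport to the Golgi they are cut by the membrane-associated proteases encoded by Mbtps1 and Mbtps2, and the freed amino-terminal part enters the nucleus. In Drosophila the family member CrebA raises the expression of secretory pathway genes, and mammalian Creb3l1 and Creb3l2 are known for their roles in bone and cartilage cells that secrete collagen. Mia3, also called TANGO1, sits at ER exit sites and helps to load collagens and other bulky cargo into COPII carriers, which take proteins from the ER to the Golgi. Parietal endoderm, a fate open to F9 cells, secretes large amounts of basement membrane.

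Promoter sequences are shown for Creb3 and Creb3l2, which are among the members whose levels separated the groups, and for Mia3, as the member with a different role. Each is the 250 bases before the annotated start in RefSeq on GRCm38.p6, written 5′ to 3′ along the gene's strand. Promoter windows were found by symbol for 5 of the 6 members. The promoter set used held none for Creb3l1, whose groups also did not overlap. Capitals mark matches on either strand to AACAAT, a core bound by Sox proteins, to ACGTG or TGACGTG, cores of elements bound by Creb3 family and ER stress factors, and to CCAAT, a general promoter element. TGACGTG contains ACGTG, so these matches overlap. The 8-base cAMP response element TGACGTCA and the ER stress element, CCAAT and CCACG spaced by 9 bases, were also searched.
Creb3 promoter, chr4:43562408-43562657, plus strand: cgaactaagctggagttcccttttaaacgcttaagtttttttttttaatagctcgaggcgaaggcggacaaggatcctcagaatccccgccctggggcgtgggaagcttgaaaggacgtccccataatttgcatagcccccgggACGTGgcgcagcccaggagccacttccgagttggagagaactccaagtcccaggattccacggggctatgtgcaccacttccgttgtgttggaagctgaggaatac
Creb3l2 promoter, chr6:37442149-37442398, minus strand: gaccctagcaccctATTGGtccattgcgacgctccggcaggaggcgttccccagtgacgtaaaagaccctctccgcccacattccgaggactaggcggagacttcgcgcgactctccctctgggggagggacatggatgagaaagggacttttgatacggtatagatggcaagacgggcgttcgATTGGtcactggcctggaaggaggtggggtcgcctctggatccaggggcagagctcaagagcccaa
Mia3 promoter, chr1:183369566-183369815, minus strand: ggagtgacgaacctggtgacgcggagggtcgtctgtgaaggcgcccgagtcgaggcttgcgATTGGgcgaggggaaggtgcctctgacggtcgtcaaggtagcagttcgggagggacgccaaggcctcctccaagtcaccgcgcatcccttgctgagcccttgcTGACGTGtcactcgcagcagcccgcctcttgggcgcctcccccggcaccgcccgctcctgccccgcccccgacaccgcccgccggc
The Creb3 window held 1 ACGTG, which 16.6% of 32851 promoter windows of this length also hold. The Mia3 window held TGACGTG, found in 1.65% of windows, and 1 CCAAT, found in 33.9%. The Creb3l2 window held 2 CCAAT matches and neither ACGTG nor TGACGTG. The Sox core AACAAT, which 9.42% of all windows hold, lay in none of these 3 windows, in 1 of 2 Creb3l3 windows and in 2 of 3 Creb3l4 windows. TGACGTCA, which 1.55% of windows hold, and the ER stress element, in 0.113% of windows, were absent from the 3 windows shown. These matches are letters only and say nothing of binding.

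The table held normalized intensities on a linear scale, with background subtracted and the arrays brought to 1 distribution before deposit. The noise threshold of each array, drawn from its own values below 0, lay between 20.1 and 20.2 intensity units, and 12953 to 12968 probes per array were above it. A probe was tested if it was above this threshold on at least 2 of the 5 arrays, which left 13624 probes and 9685 named genes. Each difference is knockdown minus control after log2(intensity + 16), and because of this offset it understates what dim probes did. The knockdown itself was visible. Sox17 read 1798 and 1732 in control arrays and 283, 309 and 243 in knockdown arrays, and Sox7 read 1306 and 1152 against 490.1, 403 and 471. Sox17 fell by 2.60 and Sox7 fell by 1.40 on the log2 scale (limma adjusted p = 0.00081 and 0.0021).

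Of the 11 member probes, 6 passed the filter, for Creb3 (both probes), Creb3l1, Creb3l2, Creb3l4 and Mia3 (1 of its 5 probes). The other 5 stayed under the noise threshold on every array. Among the tested member probes, 2 passed the whole-table threshold of adjusted p below 0.05 as lower and 1 as higher. Over all tested probes 15.9% passed, 7.51% lower and 8.38% higher, and since the members were chosen on this contrast the counts are not read further. In 4 of the 6 tested member probes the groups did not overlap, against 50.1% of all tested probes. The median difference of the 6 was -0.40, and that of all tested probes was 0.0050. In bulk RNA, fewer cells of a type and less RNA per cell cannot be told apart.

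**Figure D1:**
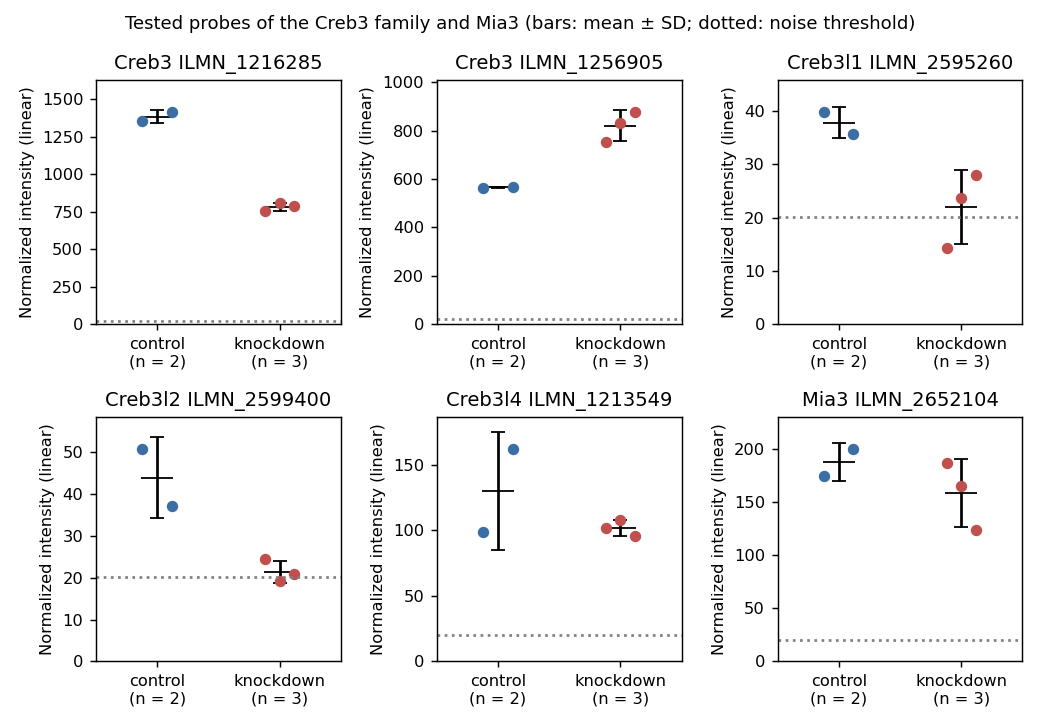
Normalized intensity (linear, intensity units) of the 6 tested member probes in each control (blue) and knockdown (red) array, with mean ± SD as black bars and the noise threshold as a dotted line. The Creb3 probes separated the groups in opposite directions, Creb3l1 and Creb3l2 lay near the threshold in knockdown cells, and the groups overlapped for Creb3l4 and Mia3.

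Creb3, also called Luman, was first found through its binding to a host cell factor that herpes simplex virus uses. Its brighter probe (ILMN_1216285) had intensities of 1353 and 1419 in the control arrays and 755, 808 and 791 in the knockdown arrays. Every knockdown array was lower than both control arrays, and the spread within each group was small. The group means were 1386 ± 46.4 (SD, n = 2) and 785 ± 26.9 (SD, n = 3), a difference of -0.81 (SE 0.0948), or 57.1% of the control level.

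The other Creb3 probe (ILMN_1256905) moved the opposite way. It read 565 and 566 in control arrays and 753, 830.5 and 879 in knockdown arrays, so that every knockdown array was higher than both control arrays. The means were 565 ± 0.904 (SD, n = 2) and 821 ± 63.6 (SD, n = 3), a difference of 0.52 (SE 0.107), or 144% of the control level. Both probes carry the same transcript accession, NM_013497, in the annotation. Probe sequences were not used here, so where each probe lies in the transcript is not known from these data. In RefSeq the Creb3 gene shares 134 bases with its neighbour Gba2, which encodes a glucosylceramidase and had no probe under its symbol. Such overlap is not particular to Creb3. Creb3l2 shares 1395 bases and Mia3 shares 4035 bases with long non-coding RNA genes. The part of overlap in the probe values was not tested.

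The gap between the differences of the Creb3 probes was 1.33 on the log2 scale. It was the fourth largest of 1841 genes with more than 1 tested probe when the brightest and the next brightest probe were compared. The median gap was 0.16, and 90% of genes had a gap of at most 0.48. These values describe the contrast for which Creb3 was chosen. Nothing is read from its rank, or from the settings, given below, in which either probe passed the threshold. Counting groups that do not overlap, 71 genes (3.86%) had probes separated in opposite directions, Creb3 among them. The brighter probe passed the threshold in every setting that kept the probes apart, and the other probe did not pass without any 1 array other than knockdown replicate 1, with the replicate block or with no filter. The direction of each probe's difference held in every setting in which it was computed, with -0.84 to -0.77 for the brighter probe and 0.47 to 0.58 for the other when 1 array was left out.

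**Figure D2:**
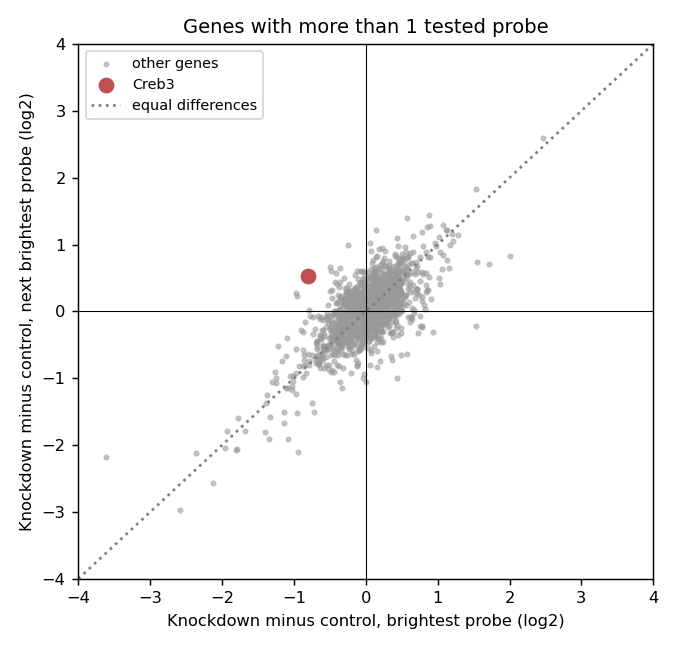
Each point is 1 of 1841 genes with more than 1 tested probe, with the knockdown minus control difference on the log2(intensity + 16) scale of its brightest probe (x axis) and of its next brightest probe (y axis), and the dotted line marks equal differences. Creb3 (red) lies at -0.81 and 0.52, away from that line.

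Creb3l2, also called BBF2H7, is known in mouse cartilage for raising Sec23a and so the export of matrix proteins. Its probe (ILMN_2599400) was dim, with 50.8 and 37.0 in control arrays and 24.4, 19.2 and 20.8 in knockdown arrays. Both control arrays lay above every knockdown array, and 2 of the 3 knockdown arrays were above the noise threshold. The means were 43.9 ± 9.72 (SD, n = 2) and 21.4 ± 2.66 (SD, n = 3), a difference of -0.67 (SE 0.136). The size rested on the control arrays and on the offset. Leaving out control replicate 1 gave -0.50 and leaving out control replicate 2 gave -0.84, and the difference ran from -0.33 with an offset of 64 to -0.90 with an offset of 4. The probe no longer passed the threshold when control replicate 1 or either of knockdown replicates 2 and 3 was left out, or with no filter.

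Creb3l1, also called OASIS, is known for its part in collagen secretion by osteoblasts. Its probe (ILMN_2595260) read 39.9 and 35.8 in control arrays and 14.3, 23.6 and 28.1 in knockdown arrays. The groups did not overlap, but knockdown replicate 1 was below the noise threshold, and the range among knockdown arrays was wider than their gap to the control arrays. The means were 37.9 ± 2.91 (SD, n = 2) and 22.0 ± 7.03 (SD, n = 3), a difference of -0.52 (SE 0.173) that did not pass the threshold. It was -0.36 without knockdown replicate 1.

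Creb3l4, a member known from prostate and testis, was brighter than these but did not separate the groups. Its probe (ILMN_1213549) read 98.4 and 162 in control arrays and 102, 108 and 95.8 in knockdown arrays. Control replicate 1 lay among the knockdown arrays and control replicate 2 stood above all others. The difference was -0.28 (SE 0.193), with 0.041 when control replicate 2 was left out and -0.60 when control replicate 1 was. Creb3l3, also called CREB-H, a factor of liver and intestine that acts on lipid and iron genes, was not well above background. Its probe (ILMN_2749800) ran from -5.82 to 9.38 over the 5 arrays, and no fold is given for it. The hepatocyte markers Alb, Afp, Fgb, Hamp and Tat were below the noise threshold on every array as well, while Ttr and Apoa1 passed the filter.

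Mia3 was measured by 1 of its 5 probes. That probe (ILMN_2652104) read 175 and 199.8 in control arrays and 186, 165 and 124 in knockdown arrays. The groups overlapped, with knockdown replicate 1 between the control arrays. The means were 187 ± 17.9 (SD, n = 2) and 158 ± 31.7 (SD, n = 3), a difference of -0.23 (SE 0.175), and it was -0.084 without knockdown replicate 3. The other 4 Mia3 probes, which share the accession NM_177389 with it, ran from -25.6 to 18.3. They give no level of their own.

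**Figure D3:**
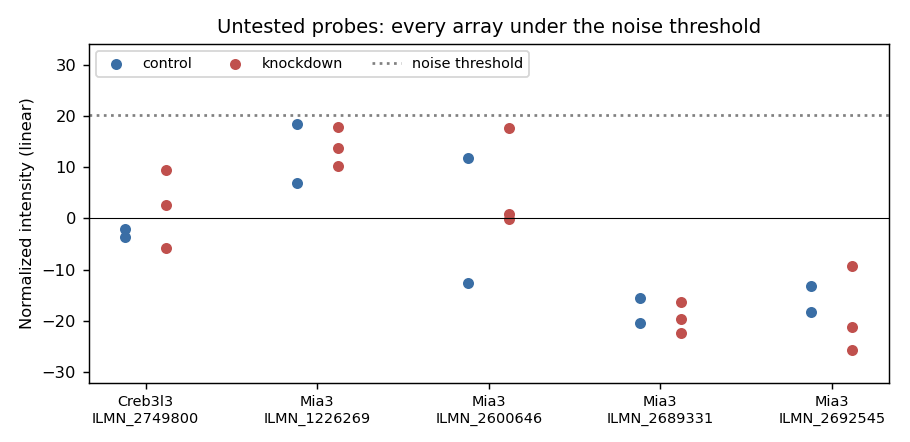
Normalized intensity (linear, intensity units) of the 5 member probes that were not tested, for Creb3l3 and 4 probes of Mia3, in control (blue) and knockdown (red) arrays, with the noise threshold dotted. All values lie between -25.6 and 18.3, under the threshold, and the groups overlap for each probe.

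Profiles closest to each member were found by the root mean square difference over the 5 arrays, after centring each profile on its own mean on the log2(intensity + 16) scale. For the brighter Creb3 probe, among 9684 other genes, these were Apoe, a lipid transport protein gene, at 0.034, Ppp1r15a, which encodes a phosphatase subunit of the stress response, at 0.037, and Slc4a2, an anion exchanger gene, at 0.038. Their differences were -0.82, -0.79 and -0.81. For Creb3l2 they were Zswim8 (0.030), Pitpnm2 (0.068) and Rrbp1 (0.073), the last a ribosome-binding protein of the ER. Creb3l1 lay nearest to Gbgt1, Rinl and Trappc12 (0.060 to 0.071), Creb3l4 to Rwdd4a, Gab3 and Thnsl2 (0.047 to 0.058), and Mia3 to Pfdn5, Gata3 and Irak1 (0.045 to 0.051). With 5 arrays in 2 groups, profiles with a similar group difference score as alike by construction.

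With the filter at 2 arrays, the protease genes whose products release Creb3 family factors did not pass the threshold of adjusted p below 0.05. Of all tested genes 17.0% passed it, 8.99% higher and 7.97% lower. Mbtps1 read 1224 and 1158 in control arrays and 1223, 1331 and 1379 in knockdown arrays, a difference of 0.14 (SE 0.103, limma adjusted p = 0.42). Mbtps2 read 117 and 130 in control arrays and 159, 161 and 163 in knockdown arrays, all higher, with a difference of 0.35 (SE 0.0963, adjusted p = 0.060). Values of 0.45 and -0.017, likewise under the threshold for a call, came from its dimmer probes. Of 8 tested genes of intramembrane proteolysis, which also hold Atf6, Atf6b and the sterol regulators Srebf2, Scap, Insig1 and Insig2, limma called 0, and 1 was higher at an unadjusted p below 0.05. The share of all tested genes at an unadjusted p below 0.05 is not given here. It cannot be replaced by the 17.0% at adjusted p, so unadjusted counts here and below are not read as an excess. With probes required above the threshold on at least 4 arrays, 1 was called, as higher. With the filter at 2 arrays the smallest adjusted p of the list was the 0.060 of Mbtps2, and the next was the 0.42 of Mbtps1. The lack of a call for the protease genes thus holds for the filter at 2 arrays. A gene is counted here by its brightest probe, and for Insig1, which retains the sterol regulators in the ER, the probes differed. Its brightest probe differed by 0.047 (adjusted p = 0.86). A dimmer probe, named after its values were seen, read 117 and 116 in control arrays and 186, 177 and 158 in knockdown arrays and passed as higher (0.51, SE 0.106, limma adjusted p = 0.026).

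COPII genes encode the coat that carries cargo out of the ER and include Creb3l2's known target Sec23a. Of 13 tested, 2 fell, 0 rose and 11 were not called. The share called either way was 15.4%, against 17.0% of all tested genes (7.97% lower), and the median was -0.19 against 0.0047 over all tested genes. By unadjusted p below 0.05, 4 were lower and 0 higher, with no share of all tested genes at that threshold to set beside them. Sec24a, a cargo-binding coat subunit, read 111 and 159 in control arrays and 46.6, 68.6 and 51.7 in knockdown arrays, and fell by 1.07 (SE 0.191, limma adjusted p = 0.017). Its relative Sec24d read 1270.4 and 1293 against 1004, 840.0 and 762, and fell by 0.56 (SE 0.137, adjusted p = 0.043). The Sec24a call was lost without control replicate 2 (adjusted p = 0.095) or knockdown replicate 3 (0.057), and that of Sec24d without any 1 array other than knockdown replicate 1 (up to 0.18). Sec23a read 458 and 520.1 against 417, 484 and 381, overlapping groups with a difference of -0.19 (SE 0.134, adjusted p = 0.38).

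Of 15 tested partners of Mia3, 3 fell, 0 rose and 12 were not called, with a median of -0.21. The share called either way was 20%, near the 17.0% of all tested genes (7.97% lower), and the count is not read further. At an unadjusted p below 0.05 the counts were 6 lower and 1 higher, with no share of all tested genes at that threshold to set beside them. Serpinh1, the collagen chaperone that Mia3 can bind, read 25074 and 22473 in control arrays and 15883, 14971 and 18288 in knockdown arrays, and fell by 0.54 (SE 0.125, limma adjusted p = 0.037). Stx18, an ER membrane fusion protein gene, fell by 0.53 (SE 0.0974, adjusted p = 0.019) and Pef1, a calcium-binding adaptor of COPII regulation, fell by 0.43 (SE 0.0980, adjusted p = 0.034). The call of Serpinh1 was kept only without knockdown replicate 3, that of Stx18 only without knockdown replicate 2, and that of Pef1 with no array left out, with adjusted p up to 0.17, 0.12 and 0.16. Mia2, the cTAGE5 partner of Mia3, was measured by a probe listed under the older symbol Ctage5 and read 3929 and 3337 against 2909, 3013 and 2921, a difference of -0.30 (SE 0.110, adjusted p = 0.12).

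Bulky cargo of the kind that Mia3 is known to help export held the largest falls among the 8 lists. Of 11 tested genes of large secreted cargo, 6 fell, 1 rose and 4 were not called, with a median of -0.87. The share called either way was 63.6%, against 17.0% of all tested genes (7.97% lower). The list was chosen with earlier results of these data known, so the share is not read as a test. Col4a1, Lama1 and Lamb1 are also counted among the endoderm markers below. The collagen genes Col4a1 and Col4a2 fell by 2.18 and fell by 1.81 (limma adjusted p = 0.00095 and 0.00081), and the laminin gene Lamb1 fell by 1.95 (adjusted p = 0.00081). Lama1 passed the filter only through the control arrays, and with a threshold on at least 4 arrays it was not tested. No knockdown array had Lama1 above the noise threshold. It was at least 3.41-fold lower than in control arrays (adjusted p = 0.019), a call that the filter favoured. That call was lost when control replicate 2 or either of knockdown replicates 2 and 3 was left out, with adjusted p up to 0.059. The riser, singled out once its value was known, was the fibronectin gene Fn1 (0.75, adjusted p = 0.0090), a call lost without either control array (adjusted p up to 0.062). Its dimmer tested probes differed by 0.46 and 0.74 and were not called. The difference between cargo and machinery was not tested.

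Other steps of the early secretory pathway had shares of called genes near the 17.0% of all tested genes, at 20% for COPI and retrieval and 15.8% for ER entry. Of 15 tested genes of COPI coats and ER retrieval, 3 fell, 0 rose and 12 were not called, with 7 lower and 1 higher at an unadjusted p below 0.05 and a median of -0.30. They were the retrieval receptor genes Kdelr3 and Kdelr1 and the cargo adaptor gene Tmed2. Kdelr3 fell by 0.59 (SE 0.116, limma adjusted p = 0.023) and Tmed2 fell by 0.40 (SE 0.0939, adjusted p = 0.040). Kdelr1 was at least 1.45-fold lower (adjusted p = 0.046), a call kept in none of 6 other settings of the fit. Kdelr1 passed the filter only through the control arrays, which favoured that call, and with a threshold on at least 4 arrays it was not tested. Of 19 tested genes of entry into the ER, 2 fell, 1 rose and 16 were not called, with a median of -0.16. At an unadjusted p below 0.05, 8 were lower and 1 higher. For neither list is the share of all tested genes at that unadjusted threshold given, so these counts are not read further. The translocon subunit gene Ssr4 fell by 0.54 and the signal peptidase gene Sec11c fell by 0.52, while the signal recognition particle gene Srp14 rose by 0.42 (adjusted p = 0.036, 0.042 and 0.039). Each of these 6 calls was lost without either control array (adjusted p up to 0.20). Leaving out a knockdown array also ended the calls of Tmed2, Sec11c and Srp14 whichever it was, that of Kdelr1 for replicates 2 and 3, that of Ssr4 for replicates 1 and 3 and that of Kdelr3 for replicate 3. The direction of a gene here is relative to the arrays' common distribution, which removes any overall difference in RNA amount.

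Of 15 reported target genes of the family, 8 were tested, and 1 fell, 1 rose and 6 were not called, with a median of -0.21. The share called either way was 25%, against 17.0% of all tested genes, and with 8 genes it is not read further. The gene that fell was Sec24d. The gene that rose was Fgf21, a hormone gene that Creb3l3 is known to activate in mouse liver, by 0.49 (SE 0.0948, limma adjusted p = 0.021), a call kept only without knockdown replicate 1. The 6 that were not called had differences of -0.31 to 0.40. Col1a1 and Col1a2, the osteoblast collagen genes tied to Creb3l1, and the liver genes Apoa4, Apoa5, Hamp, Apcs and Crp were not tested, as their probes did not pass the filter. Of 11 other tested CREB and ATF factors, 1 fell, 1 rose and 9 were not called. The share called either way was 18.2%, near the 17.0% of all tested genes, and the count is not read further. At an unadjusted p below 0.05, 4 were lower and 1 higher, with no share of all tested genes at that threshold to set beside them. Atf3, a stress-induced factor gene, fell by 1.03 (SE 0.192, adjusted p = 0.019), and Crebl2, a small leucine zipper factor gene, rose by 0.39 (SE 0.0989, adjusted p = 0.047). The call of Atf3 was kept only without knockdown replicate 2 or 3, and that of Crebl2 with no array left out (adjusted p up to 0.11 and 0.21). The call of Crebl2 was also lost with an offset of 64, an intensity trend in the variance model, the replicate block and no filter (adjusted p = 0.10, 0.15, 0.15 and 0.067), and that of Atf3 with no filter (0.13).

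**Figure D4:**
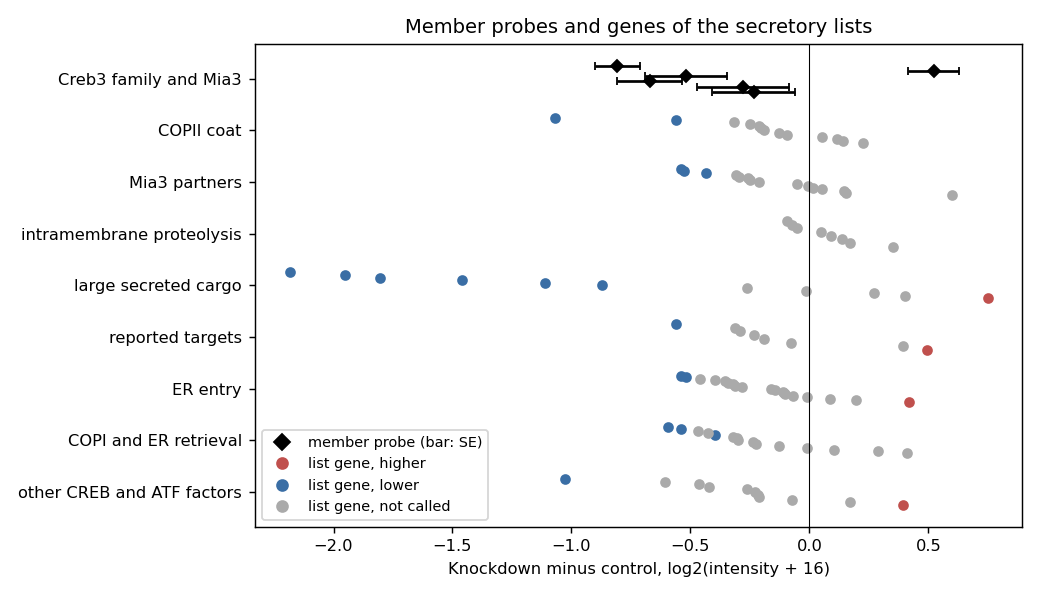
Knockdown minus control differences on the log2(intensity + 16) scale, with each of the 6 tested member probes as a black diamond (bar: SE) and each tested gene of the 8 lists as a dot, blue where it passed as lower, red as higher and grey where it was not called. Member probes ran from -0.81 to 0.52, and the widest falls were in large secreted cargo.

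Among markers of cell state, a rise or fall is again a call at limma adjusted p below 0.05. Of all tested genes 8.99% rose and 7.97% fell by that measure. Apart from genes of the lists above, these calls were not repeated with arrays left out. All 10 extra-embryonic endoderm markers fell, which include the targeted pair and Col4a1, Lama1 and Lamb1 above. Lama1 passed the filter only through the control arrays. The summed intensity of the 10 ran from 52743 to 53733 in control arrays and from 12241 to 14203 in knockdown arrays. Of 6 markers of undifferentiated F9 cells, 2 rose and 0 fell, with sums of 19091 to 21082 against 24407 to 27034. Sox2 was not called by its brightest probe, while its dimmer probe passed as higher (0.45, limma adjusted p = 0.034). Of 7 fibroblast markers with a probe, only Dcn and Thy1 were tested and both rose, with sums of 52.9 to 70.9 against 149 to 174. Dcn passed the filter only through the knockdown arrays, which favoured its call. Its dimmer tested probe was not called (0.71, limma adjusted p = 0.12). Col1a2, Col3a1, Lum and Postn stayed under the noise threshold on every array. Of the 4 osteoblast markers with a probe, Alpl alone was tested and rose, with sums of 542 to 623 against 753 to 925. Sp7, Ibsp and Dmp1 did not pass the filter, so these sums were mostly Alpl and are not read as an osteoblast shift. Of 8 hepatocyte markers, 2 were tested and 1, Ttr, fell, with sums of 497 to 562 against 319 to 369. Ttr passed the filter only through the control arrays. Of 6 neuron markers, 5 were tested and 3 rose, with sums of 1073 to 1154 against 1445 to 1692. Neurod1, among these risers, passed the filter only through the knockdown arrays, at 20.6 to 25.9. Of 3 tested endothelial markers limma called 0, with 0 at an unadjusted p below 0.05 and sums of 284 to 317 against 285 to 331. All 4 macrophage markers with a probe were below the threshold on every array. The part of these shifts in the differences of the Creb3 family was not tested.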

How the data were processed

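Total RNA of 5 F9 samples was measured as biotinylated cRNA on Illumina arrays, per the labels' protocols. The deposited values were normalized intensities, already background-subtracted and brought to a common distribution (sorted values differed by at most 0.394 between arrays). The sources used here do not name the authors' software. The 10 per-sample columns of a non-normalized table match no label and were left out. Values below 0 were set to 0, and log2(intensity + 16) was taken. The noise threshold was the 90% quantile of the sizes of an array's values below 0. Probes were named from the platform annotation (20984 with 1 symbol, 1 with several, 3628 unnamed), with symbols checked against RefSeq GRCm38.p6 by gene identifier or accession (4 updated, 7 unmatched). A gene is its tested probe with the highest mean.

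All tested probes were fitted with limma 3.58.1 (R 4.3.3) and adjusted by Benjamini-Hochberg. Tables and figures were made with Python 3.11.15, pandas 2.3.3 and matplotlib 3.10.9. Where a group is under the noise threshold on every array, a fold is a bound, from mean log2 intensities with dim values raised to the threshold. On simulated data of 13624 probes, with 200 changed, the fit recovered 14% of 1.5-fold, 56% of 2-fold, 90% of 4-fold and 98% of 8-fold changes, and called 2 unchanged probes. In the data themselves 2165 probes were called. The Benjamini-Hochberg cutoff depends on how many probes change, so these rates are not the recovery in this contrast. The number of arrays limits the precision. The members, the gene lists and the noise threshold were chosen with earlier results of these data known. Named genes were all member probes, the targeted pair, Mbtps1, Mbtps2, Sec23a, Sec24d, Mia2 (with Ctage5) and Serpinh1, up to 4 called genes of each list by size of difference, and the 3 nearest profiles of each member. Fn1 and the dimmer Insig1, Sox2 and Dcn probes are exceptions. Alternatives were other offsets, filters, probe summaries and variance models, a replicate block, and each array left out.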

Additional observations from a re-analysis of the deposited data

How the results depend on the processing

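Of 156 recomputed values, 89 stayed close to those reported and 67 moved. The differences of both Creb3 probes and of Mia3 moved by less than the spread between replicates in all alternatives tried for them. Leaving out 1 knockdown array, or the replicate block that repeats this, could not move a difference by more than that spread. Such alternatives are among the 89 and are no check of stability. With an offset of 64 the difference of Creb3l1 was -0.25 and that of Creb3l2 was -0.33, and with an offset of 4 that of Creb3l2 was -0.90. Leaving out 1 array gave -0.84 to -0.50 for Creb3l2 and -0.60 to 0.041 for Creb3l4.

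Leaving out 1 array gave 443 to 1108 called genes in all, against 1643, and 0 to 2 for COPII, 0 to 1 for Mia3 partners, 0 to 2 for reported targets, 0 to 1 for ER entry, 0 to 2 for COPI and retrieval and 0 to 1 for other CREB and ATF factors. An intensity trend gave 2621 called genes, with 4 for COPII, 7 for Mia3 partners, 9 for ER entry and 5 for COPI and retrieval. No filter gave 770 in all, with 0 for COPII, 1 for Mia3 partners, 1 for reported targets, 1 for ER entry, 1 for COPI and retrieval and 0 for other CREB and ATF factors. An offset of 4 gave 1 for COPII, 1 for reported targets, 0 for ER entry and 1 for COPI and retrieval, and an offset of 64 gave 5 for Mia3 partners, 9 for ER entry and 5 for COPI and retrieval. A threshold on at least 4 arrays gave 1 for intramembrane proteolysis and 7 for ER entry, and the mean of a gene's probes gave 5 for ER entry. For other CREB and ATF factors the counts were 0 higher and 2 lower with an offset of 64, and 0 higher and 3 lower with an intensity trend. Of the 21 called genes of the lists, taken by the same probe, 12 calls were lost with no filter, 13 with the replicate block, 7 with an offset of 4, and 2, those of Kdelr1 and Crebl2, with an offset of 64 and again with an intensity trend. With a threshold on at least 4 arrays, 2 of them were not tested. Col4a1, Col4a2, Lamb1, Lamc1, Hspg2 and Fn1 passed in all 6 of these settings. The large secreted cargo list had 5 to 7 called genes in every alternative.

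The replicate numbers are shared by 2 pairs of arrays, and deviations of same-numbered arrays from their group means correlated at 0.0072 and 0.073, so the numbers were not taken to pair the samples. The replicate block gave 828 called genes in all, 1 for COPII, 0 for Mia3 partners, 0 for reported targets, 0 for ER entry, 0 for COPI and retrieval and 1 for other CREB and ATF factors. In the replicate block knockdown replicate 3 had no partner, so each difference equalled that found without this array, as -0.81 and 0.47 for the Creb3 probes. For the differences these settings were thus not separate checks, and the block also leaves fewer residual degrees of freedom. Except for this, and for the filters' and left-out arrays' own loss of probes or residual degrees of freedom, the cause was not tested. The authors' normalization could not be varied here.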
